A study of Mus musculus with 9 samples.

Results

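The genes described here are 6 CC chemokines that attract monocytes (Ccl2, Ccl3, Ccl4, Ccl5, Ccl7 and Ccl8) and a pair of receptors through which such chemokines act (Ccr1 and Ccr2), read in mouse skin after imiquimod with or without oral vanillin. Members were every probe whose gene symbol in the platform annotation, which writes them in capitals, was CCL2, CCL3, CCL4, CCL5, CCL7, CCL8, CCR1 or CCR2 or an older synonym of these 8 names. That gave 8 probes for 7 genes out of 26423 probes and 17742 named genes, with 1 probe each for Ccl2, Ccl3, Ccl4, Ccl5, Ccl7 and Ccr1, 2 probes for Ccr2 and no probe named Ccl8. All 9 samples came from female BALB/c mice, with 3 arrays in each of 3 groups. The group called vanillin received topical imiquimod, which activates toll-like receptor 7 and is used to model psoriasis in mouse skin, together with 100 mg/kg vanillin by mouth. The group called IMQ received topical imiquimod alone, and the mock group received Vaseline cream, all on shaved back skin for 7 days. No group received vanillin without imiquimod, so every vanillin value stands on top of imiquimod. Whether the 3 arrays of a group came from separate mice is not stated, so p-values measure only how much these arrays vary, and that variation may be technical.

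CC chemokines are small secreted proteins with adjacent cysteines near their amino terminus that bind G protein-coupled receptors on leukocytes. Ccl2 and Ccl7 are ligands of CCR2, the receptor that draws inflammatory monocytes from the bone marrow and blood into tissue. Ccl3 and Ccl5 bind CCR1, a receptor carried by monocytes and macrophages, and Ccl4 is a close relative of Ccl3 that attracts monocytes and T cells. In inflamed skin these chemokines come from keratinocytes, endothelium, fibroblasts and the arriving leukocytes themselves.

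The samples are labelled as skin, but the text on RNA extraction speaks of muscle. Keratinocyte markers lay at a median intensity percentile of 99.6 and skeletal muscle markers at 98.7, so probes of both tissues were bright on these arrays. The arrays had medians of 629 to 631 intensity units, and precision is limited by there being 3 arrays a group. A probe was called when limma gave a Benjamini-Hochberg adjusted p under 0.05 over all probes, and a gene's brightest probe stood for it. Values below are log2 probe intensities, which cannot be compared in level between probes.

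Ccl3 and Ccr1, a ligand and its receptor, were both highest in the vanillin group, as were Ccl4 and the brighter Ccr2 probe. The 250 bases before the annotated starts of Ccl3 and Ccr1 are shown. No window was available for Ccl2, Ccl4, Ccl5 or Ccl7, and that of Ccr2 is not shown. The sequences are those of RefSeq on GRCm38.p6, at chr11:83649379-83649628, minus strand, for Ccl3 and at chr9:123968693-123968942, minus strand, for Ccr1. Capitals mark GAGGAA or its reverse complement, the core bound by the myeloid transcription factor PU.1.
Ccl3: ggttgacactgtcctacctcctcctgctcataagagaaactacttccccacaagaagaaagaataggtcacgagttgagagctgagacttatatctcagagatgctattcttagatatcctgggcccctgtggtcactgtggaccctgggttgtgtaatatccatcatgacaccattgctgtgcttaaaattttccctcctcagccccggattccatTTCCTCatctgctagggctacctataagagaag
Ccr1: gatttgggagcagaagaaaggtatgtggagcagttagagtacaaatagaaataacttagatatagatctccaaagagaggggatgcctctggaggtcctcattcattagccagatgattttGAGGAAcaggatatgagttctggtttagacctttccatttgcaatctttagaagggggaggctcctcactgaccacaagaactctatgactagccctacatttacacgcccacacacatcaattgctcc
The PU.1 core began 33 bases before the start of Ccl3, on the minus strand relative to the gene, and 129 bases before the start of Ccr1, on its plus strand. Of 32851 windows of the same length 23.3% held it on either strand. Of the 4 members with a window in the table, Ccl8 also held it and Ccr2 did not. The NF-kB motif GGNNTTTCC (in 4.93% of windows) and the AP-1 motif TGANTCA (in 6.75%) were not found on either strand in these 4 windows. No marked core could therefore overlap another of the searched motifs. The motifs were chosen after the expression values and windows had been seen, and a match describes letters, not a bound site.

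Setting the vanillin group against IMQ compared imiquimod with and without oral vanillin. No oral vehicle is named above for the IMQ group, so vanillin and oral dosing itself cannot be told apart. All 7 measured members passed the test, 6 of them higher and 1, Ccl2, lower in the vanillin group. Among all 17742 genes 42.8% were called, 26.2% higher and 16.6% lower. The median log2 fold change was 0.95 over the 7 members and 0.06 over all genes. In 6 members every vanillin array lay above every IMQ array, beside 35.9% of all genes, and Ccl2 had every vanillin array below every IMQ array, beside 26.1%. The brighter Ccr2 probe stood for Ccr2 in these values, and the median of 0.95 is its own fold change. On the dimmer Ccr2 probe the groups overlapped, at 0.06 (limma adjusted p = 0.731). In whole tissue, fewer cells of a type and less RNA per cell cannot be told apart.

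**Figure D1:**
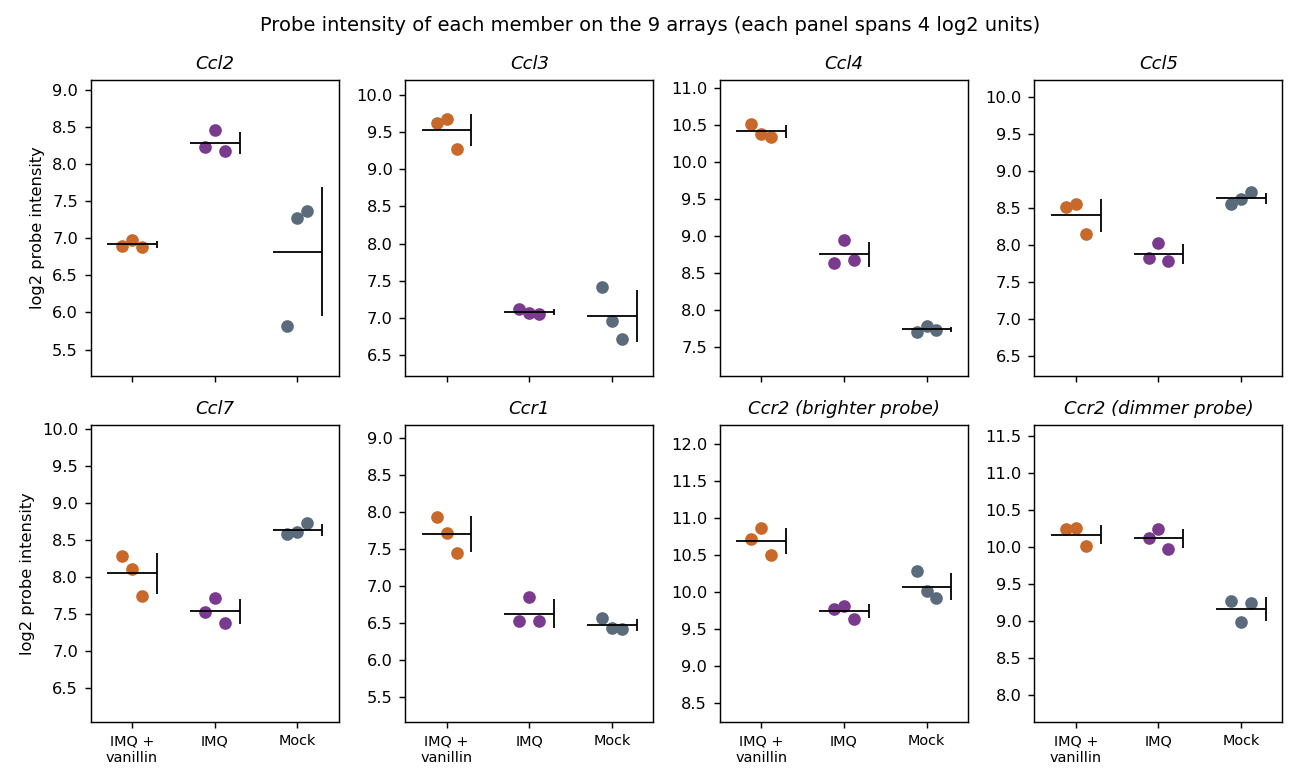
Log2 probe intensity of each member on each array, with the vanillin, IMQ and mock groups from left to right in each panel. Points are arrays, horizontal lines group means and vertical bars ± 1 SD (n = 3). Ccl3, Ccl4 and Ccr1 are highest on the vanillin arrays, Ccl2 on the IMQ arrays, and Ccl5 and Ccl7 on the mock arrays, while the 2 Ccr2 probes differ in pattern.

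Ccl2, which encodes monocyte chemoattractant protein 1, is the main CCR2 ligand. It read 6.90, 6.98 and 6.89 on the vanillin arrays, 8.23, 8.46 and 8.18 on the IMQ arrays and 5.82, 7.28 and 7.37 on the mock arrays. The IMQ arrays stood above all others, and the vanillin values fell inside the wide range of mock. Ccl2 was 2.58-fold lower with vanillin than with IMQ alone, at a log2 fold change of -1.37 ± 0.35 (SE, limma adjusted p = 0.0159). With IMQ it was 2.76-fold higher than in mock, at 1.47 ± 0.35 (SE, limma adjusted p = 0.00751). The vanillin group differed from mock by 0.10, with a 95% confidence interval of -0.71 to 0.91 (limma adjusted p = 0.864). Mock replicate 1 lay far below the other mock arrays. The SE is shared by the comparisons and drew mostly on mock, with SDs of 0.87 in mock, 0.15 with IMQ and 0.048 with vanillin. For vanillin against IMQ the limma adjusted p was 0.000259 without mock replicate 1 and 0.0477 without IMQ replicate 2. Without mock replicate 1 the rise with IMQ was 0.96 (limma adjusted p = 0.000336), and the vanillin group was called lower than mock, at -0.40 (limma adjusted p = 0.0233).

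Ccl7, which encodes monocyte chemoattractant protein 3 and lies next to Ccl2 on chromosome 11, moved the other way. It read 8.29, 8.11 and 7.75 with vanillin, 7.53, 7.72 and 7.38 with IMQ and 8.58, 8.61 and 8.73 in mock. Mock was highest, IMQ lowest and the vanillin arrays lay between them, with no overlap among the 3 groups. The log2 fold change was 0.51 ± 0.15 for vanillin against IMQ (SE, limma adjusted p = 0.0254) and -1.10 ± 0.15 for IMQ against mock (SE, limma adjusted p = 0.000355). Vanillin skin was lower than mock, at -0.59 ± 0.15 (SE, limma adjusted p = 0.0175). The call for vanillin against IMQ did not survive in 4 of the 9 fits that dropped an array, those without IMQ replicate 1 or 3 or vanillin replicate 1 or 2 (limma adjusted p = 0.072 to 0.0962). The call against mock was lost without mock replicate 3 (limma adjusted p = 0.06).

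Ccl3 encodes macrophage inflammatory protein 1 alpha, a ligand of CCR1. Its values were 9.63, 9.68 and 9.27 with vanillin, 7.12, 7.06 and 7.05 with IMQ and 7.41, 6.95 and 6.71 in mock. The vanillin arrays stood alone, more than 1 log2 unit above the others, and the IMQ arrays fell inside the mock range. As linear intensities these were 617 to 822 with vanillin, 133 to 139 with IMQ and 105 to 170 in mock. Ccl3 rose 5.46-fold with vanillin over IMQ, at 2.45 ± 0.18 (SE, limma adjusted p = 0.000286), and 5.67-fold over mock. For IMQ against mock the difference was 0.05, with a 95% confidence interval of -0.35 to 0.46 (limma adjusted p = 0.816).

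Ccl4, which encodes macrophage inflammatory protein 1 beta and neighbours Ccl3, formed 3 separate steps. It read 10.51, 10.38 and 10.33 with vanillin, 8.64, 8.94 and 8.67 with IMQ and 7.71, 7.78 and 7.73 in mock. Every vanillin array lay above every IMQ array, and every IMQ array above every mock array. Ccl4 rose 3.16-fold with vanillin over IMQ, at 1.66 ± 0.10 (SE, limma adjusted p = 0.000124), and 2.01-fold with IMQ over mock, at 1.01 ± 0.10 (SE, limma adjusted p = 8.27e-05). Between the ends, vanillin over mock, the rise was 6.36-fold (limma adjusted p = 6.67e-07).

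Ccl5, or RANTES, which attracts T cells as well as monocytes, followed the order of Ccl7. It read 8.51, 8.55 and 8.15 with vanillin, 7.83, 8.03 and 7.78 with IMQ and 8.56, 8.62 and 8.71 in mock. The IMQ arrays were lowest, and the vanillin arrays sat above them and just under mock. The log2 fold change was 0.52 ± 0.13 for vanillin against IMQ (SE, limma adjusted p = 0.0116), a call lost without IMQ replicate 3 (limma adjusted p = 0.0505). It was -0.75 ± 0.13 for IMQ against mock (SE, limma adjusted p = 0.00113). Vanillin against mock gave -0.23, with a 95% confidence interval of -0.51 to 0.06 (limma adjusted p = 0.231), although the arrays of these groups did not overlap.

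Ccr1, the receptor of Ccl3 and Ccl5 on monocytes and neutrophils, had the dimmest probe of the members, at intensity percentile 20.2. It read 7.93, 7.72 and 7.44 with vanillin, 6.53, 6.85 and 6.53 with IMQ and 6.57, 6.44 and 6.42 in mock. As with Ccl3, the vanillin arrays stood above all others and the IMQ and mock arrays overlapped. Ccr1 rose 2.09-fold with vanillin over IMQ, at 1.06 ± 0.14 (SE, limma adjusted p = 0.00159), and 2.32-fold over mock (limma adjusted p = 0.000362). IMQ against mock gave 0.15, with a 95% confidence interval of -0.17 to 0.48 (limma adjusted p = 0.391).

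Ccr2, the receptor of Ccl2 and Ccl7, had 2 probes that disagreed. The brighter probe read 10.71, 10.86 and 10.50 with vanillin, 9.77, 9.81 and 9.63 with IMQ and 10.28, 10.02 and 9.92 in mock. On it the vanillin arrays were highest and the IMQ arrays lowest, without overlap. The dimmer probe read 10.24, 10.26 and 10.02 with vanillin, 10.13, 10.24 and 9.98 with IMQ and 9.28, 8.99 and 9.25 in mock. On that probe both imiquimod groups overlapped and stood above mock.

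For vanillin against IMQ the brighter Ccr2 probe gave 0.95 ± 0.13 (SE, limma adjusted p = 0.00158) and the dimmer one 0.06 ± 0.12 (SE, limma adjusted p = 0.731). For IMQ against mock they gave -0.33 ± 0.13 (SE, limma adjusted p = 0.0533) and 0.94 ± 0.12 (SE, limma adjusted p = 0.000236), which are of opposite sign. Both probes were higher with vanillin than in mock, at 0.62 ± 0.13 (SE, limma adjusted p = 0.00716) and 1.0 ± 0.12 (SE, limma adjusted p = 0.000367). Which transcript or exon each probe reads is not given in the sources used here, and vanillin against mock was the one comparison in which both probes were called in the same direction. The mean of both probes gave 0.50 for vanillin against IMQ (limma adjusted p = 0.00786). With the dimmer probe standing for Ccr2, 6 of the 7 members were called for vanillin against IMQ, 5 higher and 1 lower.

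**Figure D2:**
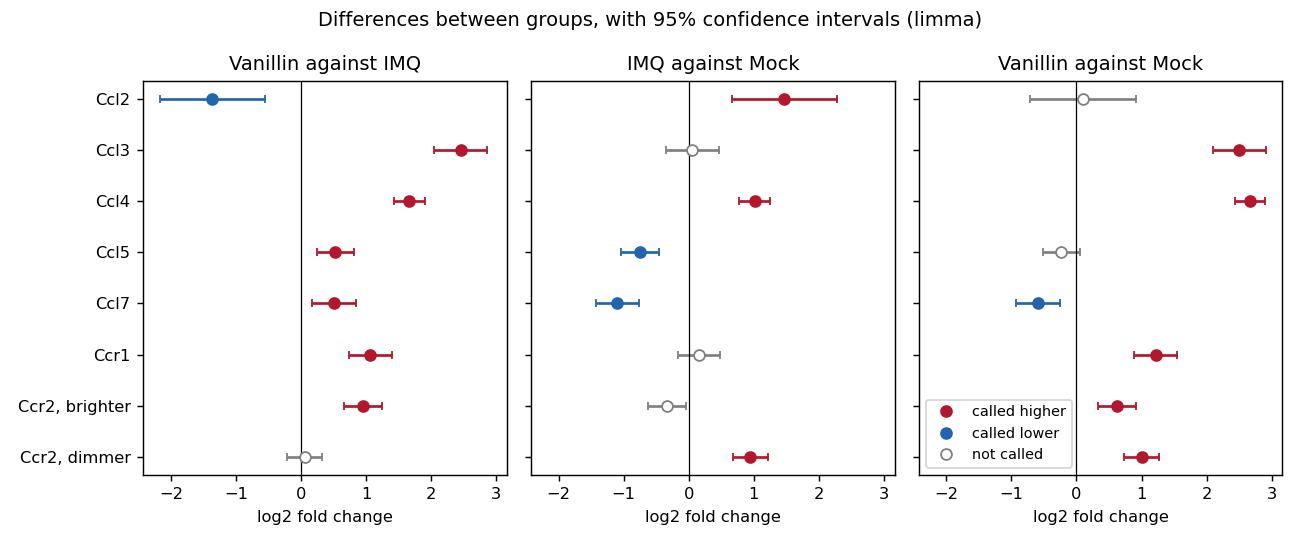
Log2 fold change of each member probe (points) with its 95% confidence interval (bars), for vanillin against IMQ, IMQ against mock and vanillin against mock from left to right. Filled points passed limma at an adjusted p under 0.05, red higher and blue lower. Ccl2 lies left of 0 for vanillin against IMQ and right of 0 for IMQ against mock, while Ccl5 and Ccl7 show the reverse.

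Setting IMQ against mock compared topical imiquimod with Vaseline cream, so imiquimod and the base it was applied in cannot be told apart. Of the 7 members 2 were called higher (Ccl2 and Ccl4), 2 lower (Ccl5 and Ccl7) and 3 were not called (Ccl3, Ccr1 and the brighter Ccr2 probe), beside 24.3% of all genes called higher and 31.6% lower. The median log2 fold change was 0.05 over the members and -0.06 over all genes. Vanillin against mock called 4 members higher (Ccl3, Ccl4, Ccr1 and Ccr2) and 1 lower (Ccl7), beside 13.4% and 15.9% of all genes. The median was then 0.62 over the members, which is the value of the brighter Ccr2 probe, and 0.01 over all genes. These comparisons share the IMQ or mock arrays with each other, so their values for one gene are not independent.

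The chemokine members lie in 2 groups of neighbouring genes on mouse chromosome 11, by gene order in RefSeq GRCm38.p6. In the order Ccl2, Ccl7, Ccl11, Ccl12, Ccl8 and Ccl1, Ccl12 and Ccl8 had no named probe. Ccl2 was the only measured gene of that group called higher with IMQ than in mock. Ccl11, or eotaxin, which attracts eosinophils, fell by 1.46 ± 0.11 with IMQ (SE, limma adjusted p = 2.17e-05) and was higher with vanillin than with IMQ, at 0.73 ± 0.11 (SE, limma adjusted p = 0.0024). Ccl1, named here for its place after its values were seen, gave 0.13 ± 0.22 for vanillin against IMQ (SE, limma adjusted p = 0.673) and -0.91 ± 0.22 for IMQ against mock (SE, limma adjusted p = 0.0078).

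The other group ran Ccl5, Ccl9, Ccl6, Ccl3 and Ccl4. Its first 3 genes were called lower with IMQ than in mock and higher with vanillin than with IMQ, whereas for IMQ against mock Ccl3 was not called and Ccl4 was called higher. Ccl9 and Ccl6 are chemokines found in rodents. Ccl9 gave 0.58 ± 0.15 for vanillin against IMQ and -0.65 ± 0.15 for IMQ against mock, and Ccl6 gave 0.70 ± 0.13 for vanillin against IMQ and -1.04 ± 0.13 for IMQ against mock (SE).

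**Figure D3:**
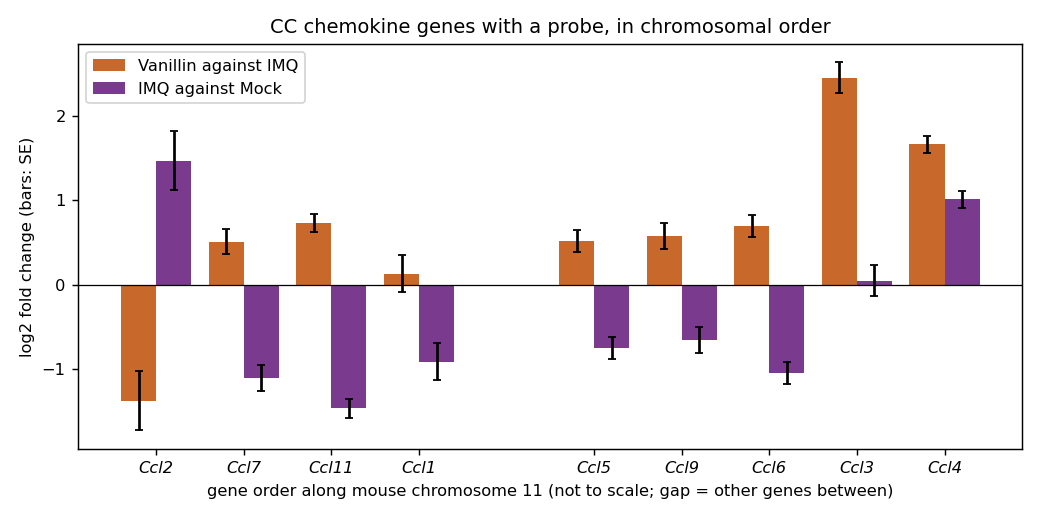
Log2 fold change of the 9 CC chemokine genes with a probe in the 2 groups on chromosome 11, in gene order, for vanillin against IMQ (orange) and IMQ against mock (purple), with bars of ± 1 SE. Ccl2 is the gene with a negative orange and a positive purple bar, and for both Ccl3 and Ccl4 neither bar is below 0.

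Beyond the members, 11 of 15 other CC chemokines had a probe. Counts in this and the following lists stand beside the shares over all genes given above. For vanillin against IMQ 3 were called higher, 1 lower and 7 not called, with a median of 0.23, and for IMQ against mock 2 were higher, 5 lower and 4 not called, with a median of -0.19. Ccl20, the ligand of Ccr6 that attracts Th17 cells, gave -0.76 ± 0.10 for vanillin against IMQ (SE, limma adjusted p = 0.00148), after a rise of 1.36 ± 0.10 with IMQ over mock. Ccl22, a ligand of Ccr4 made by dendritic cells, rose by 1.08 ± 0.12 with IMQ over mock (SE, limma adjusted p = 0.000107) and gave -0.20 ± 0.12 for vanillin against IMQ (SE, limma adjusted p = 0.189).

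Of 12 other CC receptors and scavenging or atypical receptors 10 had a named probe. For vanillin against IMQ 1 was called higher, 0 lower and 9 not called, with a median of -0.03, so the calls for Ccr1 and the brighter Ccr2 probe stood beside 1 other receptor. That one was Ackr1, an atypical receptor of venular endothelium that binds chemokines without signalling, at 0.52 ± 0.15 (SE, limma adjusted p = 0.0248). For IMQ against mock 5 receptors were higher and 1 lower, with Ccr6 at 1.30 ± 0.10 (SE, limma adjusted p = 2.19e-05), Ccr8, a receptor of skin-homing T cells, at 0.58 ± 0.14 (SE, limma adjusted p = 0.00785) and the chemerin-binding receptor Ccrl2 at 1.07 ± 0.29 (SE, limma adjusted p = 0.0125). Ackr1 was the one called lower, at -0.57 ± 0.15. For vanillin against IMQ, Ccr10 read 0.24 ± 0.12, Ccr8 read -0.34 ± 0.14 and Ccrl2 read -0.67 ± 0.29, none of them called.

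Downstream signalling genes of chemokine receptors (21 of 22 with a probe) gave 7 higher, 3 lower and 11 not called for vanillin against IMQ, with a median of 0.18. Pik3r5, a regulatory subunit of the G protein-activated phosphoinositide 3-kinase, rose by 0.81 ± 0.11 (SE, limma adjusted p = 0.0017) and Gng2, a G protein gamma subunit, by 0.77 ± 0.13 (SE, limma adjusted p = 0.00326). Gnai2, the inhibitory G protein alpha subunit, was lower, at -0.42 ± 0.08, as was the Src family kinase Fgr, at -0.58 ± 0.12. For IMQ against mock 10 were higher, 2 lower and 9 not called, among them Fgr at 1.29 ± 0.12, Gnai2 at 0.64 ± 0.08, the receptor kinase Grk2 at 0.84 ± 0.12 and Prkcb, a protein kinase C, at 1.66 ± 0.23, all higher.

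Markers of monocytes and macrophages did not move in one direction. Over all genes 26.2% were called higher and 16.6% lower for vanillin against IMQ, and 24.3% and 31.6% for IMQ against mock. Of 15 measured markers 4 were called higher, 3 lower and 8 not called for vanillin against IMQ, with a median of -0.11, and 8 higher, 4 lower and 3 not called for IMQ against mock, with a median of 0.38. Cd14, the co-receptor for lipopolysaccharide, rose by 0.94 ± 0.12 with vanillin over IMQ (SE, limma adjusted p = 0.00141), and Cx3cr1, the fractalkine receptor, was lower at -1.74 ± 0.21 (SE, limma adjusted p = 0.00122). The summed intensity of the 15 probes ran from 82645 to 88271 on vanillin arrays, 90893 to 93621 on IMQ arrays and 71953 to 80973 on mock arrays. That sum, in which bright probes weigh most, was thus lower with vanillin than with IMQ, and its relation to the members was not tested. No probe was named for the monocyte markers Ly6c1, Ly6c2, Lyz1 or Lyz2.

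Marker lists of other cell types differed in how they moved, beside 26.2% of all genes called higher and 16.6% lower for vanillin against IMQ. For vanillin against IMQ neutrophil markers gave 9 higher and 0 lower of 15, with a median of 0.42 and with the activating receptor Trem1 at 0.86 ± 0.08 and the resistin-like Retnlg at 1.20 ± 0.12 (SE). Their summed intensity, which bright probes dominate, was not higher with vanillin than with IMQ and ran from 118208 to 131685 on vanillin arrays, 131562 to 135659 on IMQ arrays and 12356 to 13469 on mock arrays. Skeletal muscle markers gave 8 higher and 0 lower of 9 (median 0.48), adipocyte markers 6 higher and 1 lower of 8 (median 0.65) and endothelial markers 5 higher and 0 lower of 8 (median 0.40). T cell markers gave 3 higher and 4 lower of 10 (median -0.27), dendritic cell markers 5 higher and 2 lower of 10 (median 0.38), and keratinocyte markers 0 higher and 2 lower of 8 (median 0.04). Fibroblast markers gave 2 higher and 1 lower of 7 (median 0.09), mast cell markers 1 higher and 1 lower of 8 (median 0.07), and natural killer cell markers 1 higher and 1 lower of 6 (median 0.02). Their part in the members' differences was not tested.

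The summed intensity of skeletal muscle markers was 438852 to 457262 on vanillin arrays, 344508 to 350626 on IMQ arrays and 416251 to 459528 on mock arrays. For endothelial markers it was 18064 to 18910 on vanillin arrays, 14151 to 14697 on IMQ arrays and 22551 to 23470 on mock arrays. For adipocyte markers it was 227733 to 238316 on vanillin arrays, 206959 to 210550 on IMQ arrays and 301564 to 324206 on mock arrays. For fibroblast markers it was 182064 to 190775 on vanillin arrays, 174852 to 180542 on IMQ arrays and 236328 to 260685 on mock arrays, and for dendritic cell markers 6954 to 8294 on vanillin arrays, 5711 to 6113 on IMQ arrays and 7011 to 8795 on mock arrays. These 5 sums were lowest with IMQ. The sums for monocyte and macrophage, neutrophil, T cell, natural killer cell and keratinocyte markers were lowest in mock. That for mast cell markers was lowest with vanillin. Bright probes weigh most in all these sums, so a sum need not follow its list. For IMQ against mock S100a9 gave 5.54, beside a neutrophil median of 0.19 (5 called higher and 3 lower of 15). Krt1 gave 3.43, beside a keratinocyte median of 0.17 (2 higher and 1 lower of 8). Among natural killer cell markers Eomes lay at intensity percentile 86.9, beside a list median of 27.2. Any link between these sums and the members was not tested.

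**Figure D4:**
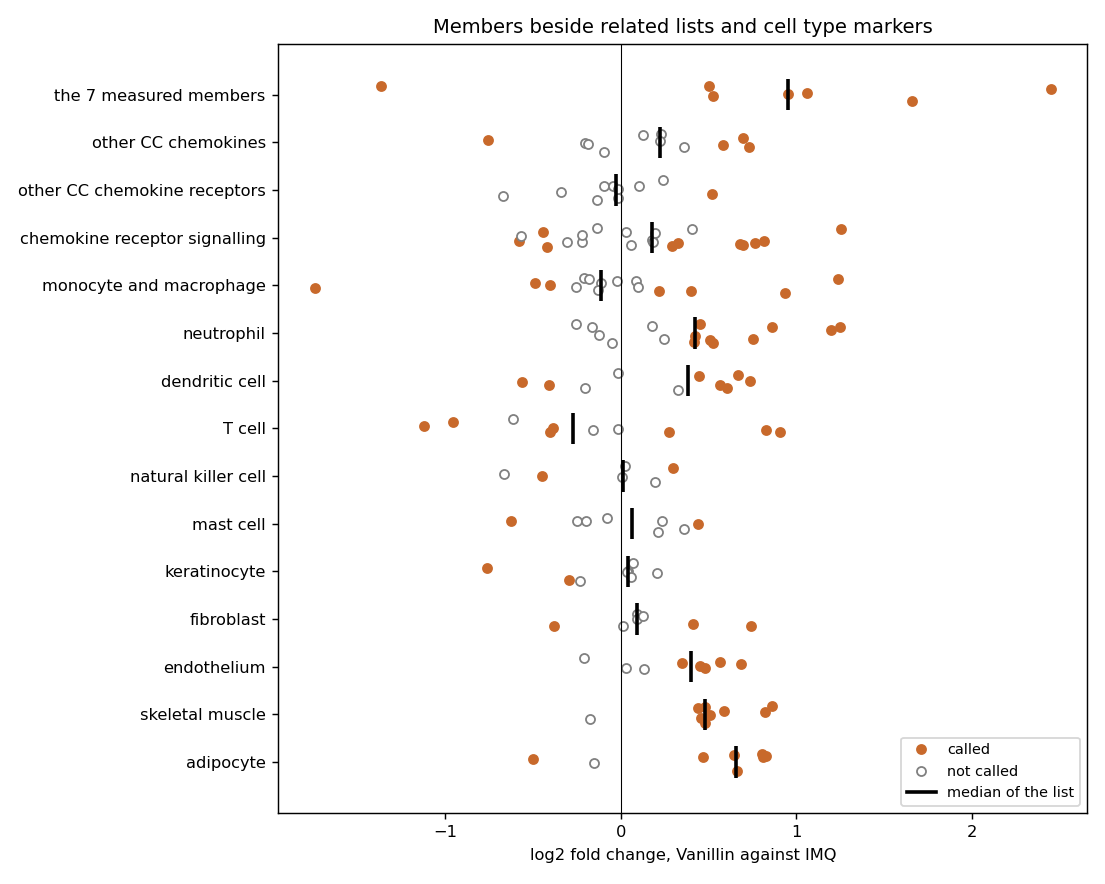
Log2 fold change of vanillin against IMQ for each gene (points) of the members, related gene lists and marker lists of 11 cell types, with a black line at each list's median. Filled points passed limma at an adjusted p under 0.05, and points are spread vertically for legibility. The members' median is 0.95, against medians from -0.27 (T cell) to 0.65 (adipocyte) in the other lists. That 0.95 is the value of the brighter Ccr2 probe. The dimmer Ccr2 probe, at 0.06, is not drawn, and the members' median would be lower with it.

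The genes most like each member were ranked by the root mean square difference of log2 values over the 9 arrays after centring each gene, among 16342 named genes, for the 5 members whose group means spanned at least 1 log2 unit. Nearest to Ccl3 were the stromelysin Mmp10 (0.275 log2 units), the cornified envelope precursor Sprr2f (0.288) and the immediate early factor Fos (0.328). Nearest to Ccl4 were the cytokine Il24 (0.206), Fos (0.228) and the B cell attractant Cxcl13 (0.228). For Ccr1 they were the deiodinase Dio2 (0.11), the connexin Gjb1 (0.125) and Cd14 (0.126). Ccl2 lay nearest to Fam53c (0.178), Naxe (0.18) and Trp53i13 (0.186), and Ccl7 to Haus2 (0.0574), Insyn1 (0.0643) and Ica1 (0.0679). Fos was thus listed for both Ccl3 and Ccl4, with log2 fold changes of 1.74 for vanillin against IMQ and 0.70 for IMQ against mock. The same comparisons gave 2.45 and 0.05 for Ccl3 and 1.66 and 1.01 for Ccl4, and a link between these genes was not tested.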

How the data were processed

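Expression was read as Cy5 signal on one-colour arrays, per the labels' protocols. The authors deposited linear intensities of 26423 probes for each of the 9 samples. Limma is the tool named in the submitters' processing notes; scanner, background correction and filters are not stated there. The deposited columns had been equalised (sorted values above 100 differed by at most 3.42%), so a change of total signal cannot be seen. On each array 1 to 3 intensities were at or below 0.

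Intensities were floored at 1 and converted to log2 with no further normalization. limma 3.58.1 under R 4.3.3 fitted 3 group means to all 9 arrays. Adjustment was by Benjamini-Hochberg over the whole table, with 0.05 as threshold. A gene symbol was given for 20377 probes (18213 current, 2126 updated from a synonym, 38 as given) and for 6046 there was none, from the platform annotation and RefSeq GRCm38.p6. The probe with the highest mean stood for a gene. The fit was tested on simulated data. Named genes were all members, from each related list the 4 with the smallest p in either of these comparisons (vanillin against IMQ, IMQ against mock), and from each cell type described in detail the 2 markers with the smallest p for vanillin against IMQ. Members and lists were chosen with earlier results of these data known. Arrays with the same replicate number had deviations from their group means that correlated between -0.265 and 0.222, so the numbers were not taken as pairs. Some items are not reported here.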

Additional observations from a re-analysis of the deposited data

How the results depend on the processing

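The 7 members were refitted for all 3 comparisons with another normalization, filter, offset, spread prior, array weights, choice of arrays, replicate block, probe rule or threshold, and without each array in turn. Of 207 results of a member in a setting with all arrays of both groups, 193 kept direction and side of the threshold. Of 189 such results without 1 array 178 did. Many of these could hardly differ, so the totals do not measure robustness. The stricter threshold and the dimmer Ccr2 probe reused the main fit, and dropping an array of the group not compared cannot move a fold change. At an adjusted p under 0.01 the count for vanillin against IMQ was 4 members (4 higher, 0 lower), and 0 members were lower for vanillin against mock. With 1 array left out the calls ranged from 5 to 7 for vanillin against IMQ, 4 to 5 for IMQ against mock and 4 to 6 for vanillin against mock, and members called lower for vanillin against mock from 0 to 2. With the replicate block 5 members were called for IMQ against mock, since the brighter Ccr2 probe then passed (-0.33, limma adjusted p = 0.0369), as in 8 other refits; no other call changed under that block.

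Signs turned for values near 0 and for Ccr2. Ccl2 in vanillin against mock was -0.28 with array weights and between -0.40 (without mock replicate 1) and 0.38 (without mock replicate 3) with an array left out. Ccl3 in IMQ against mock was between -0.10 (without mock replicate 3) and 0.25 (without mock replicate 1). Ccr2 in IMQ against mock was 0.31 with the mean of both probes and 0.94 on the dimmer probe alone, an alternative chosen after seeing the data. With the dimmest 25% of probes left out Ccr1 was not tested. Dim signal over an unknown background limits Ccr1, Ccl2 and Ccl3 most, and adding 32 to each intensity brought Ccl3 in vanillin against IMQ to 2.20.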
